A study of Mus musculus with 2 samples.

Results

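Interferon-stimulated genes and interferon regulatory factors (IRFs) were followed in Ba/F3 cells treated with imatinib, with or without interleukin-3 (IL-3). Members were the 53 genes of a list of known interferon-induced genes, IRFs and interferon receptor chains. Only probe sets naming a single gene were used; where a gene had several, the probe set whose mean over the 2 arrays was highest stood for it. This gave 50 members of 19935 genes in all. Isg15 and Gbp2 are named only by probe sets shared with another gene, and no probe set here names Ifi44, so that these 3 genes have no value below.

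Ba/F3 cells are a mouse line of pro-B type whose growth normally requires IL-3, and all cells here constitutively expressed BCR-ABL, the fusion kinase that imatinib inhibits. The group with IL-3 was imatinib-treated and had IL-3 in its medium, and the group without IL-3 was imatinib-treated and had none. Both received 5 µM imatinib for 6 h in medium with 10% serum, and both are titled as live cells; how live cells were obtained is not given in the sources used here. The submitters describe the cells with IL-3 as resistant to imatinib and those without it as sensitive, and the comparison asks how expression differs between cells due to survive and cells due to die.

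Each group had 1 array, so no test between the groups was possible and every difference below compares 2 arrays. The groups follow the sample titles; the description of the array with IL-3 says that its cells were grown without it, and the source name of the other can be read as without imatinib. Values are log values, taken as log2, and each probe set is set against a baseline of its own that is not given, so they carry no expression level and neither detection nor the presence of a cell type's markers could be checked. Larger values were taken to mean more RNA. Over 998 genes with several probe sets, the difference between the arrays was compared between probe sets of 1 gene. Its pooled SD was 0.14 (log2). This probe set SD can include real differences between the transcripts read and leaves out variation between cultures. It is thus a yardstick of size and not an estimate of the error.

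Type I interferon binds a receptor made of IFNAR1 and IFNAR2, whose kinases JAK1 and TYK2 phosphorylate STAT proteins. STAT2 and IRF9 are subunits of the factor ISGF3, which binds the interferon-stimulated response element (ISRE) and switches on antiviral genes. IRF3 and IRF7 act upstream and downstream of this loop: they induce the interferon genes after viral nucleic acid is sensed, and IRF7 is itself induced by interferon. IRF8 and IRF4 are better known in blood cells for their part in lineage choice. In many cell types a low tonic signal keeps part of this gene set on without infection.

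The ISRE is the sequence feature that defines many members, and it was searched for as 2 copies of TTTC with 2 bases of any kind between them, on either strand, so that it reads as 2 copies of GAAA when it lies on the other strand, in RefSeq promoters (GRCm38.p6), each covering 250 bases before and 50 bases after a gene start. Of the 53 members, 43 had a promoter entry, and 17 of these (39.5%, 95% Wilson interval 26.4 to 54.4, covering counting error only) held a match, against 3.99% of 27025 genes. A longer form of it, with AG directly before the first TTTC, was in 9 of the 43 (20.9%), against 0.303% of all genes. The GAS motif, TTC and GAA with 3 bases of any kind between them, which STAT dimers bind, was in 13 of the 43 (30.2%), against 9.55% of all genes. Oas2, Mx1, Mx2, Usp18, Rtp4, Ifi27, Dhx58, Parp9, Parp14 and Zbp1 had no entry. Of the 15 measured members with a match, 11 had it wholly before the gene start, and 8 of those are shown to set the same element in 4 genes that were lower with IL-3 by more than the probe set SD beside 4 that were not; capitals mark the match nearest the gene start with any match that overlaps it.
Oas3, chr5:120777715-120777744, minus strand: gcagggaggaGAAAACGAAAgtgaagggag
Oas1a, chr5:120907526-120907549, minus strand: tcggGAAATGGAAACTGAAAatct
Trim30a, chr7:104465210-104465239, minus strand: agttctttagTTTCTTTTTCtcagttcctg
Stat2, chr10:128270266-128270295, plus strand: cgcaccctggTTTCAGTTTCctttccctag
Ifit1, chr19:34640794-34640823, plus strand: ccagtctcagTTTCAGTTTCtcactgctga
Ifit3, chr19:34583397-34583426, plus strand: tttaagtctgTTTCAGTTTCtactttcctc
Rsad2, chr12:26456553-26456582, minus strand: ctggtccaacTTTCATTTTCagaaaacaga
Bst2, chr8:71537577-71537606, minus strand: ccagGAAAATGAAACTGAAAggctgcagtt

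As a group, the members lay lower with IL-3 than without it. Their median difference, with IL-3 minus without IL-3, was -0.19 (log2), against 0.04 over all genes. Of the 50 members, 35 (70%) had a difference below 0, against 40.1% of all genes. By the fixed rule of size, 8 members (16%) passed 1.5-fold on the lower side with IL-3, against 2.71% of all genes, and 0 passed it on the higher side, against 3.52% of all genes. The balance over all genes depended on the scaling of the arrays: 3.70% were lower and 1.79% higher by this rule with a loess trend subtracted, and 3.23% lower and 2.41% higher after quantile normalization, where 9 and 8 members were lower and 0 higher. At 2-fold on the deposited scale, 3 members (6%) were lower, against 0.657% of all genes, and 0 were higher, against 0.441%. The 8 genes were Sp100, Oas2, Samd9l, Irf7, Irf9, Ifitm1, Oasl2 and Usp18. By the probe set SD, 26 members (52%) were lower with IL-3 by more than this SD, against 17.1% of all genes, and 6 (12%) were higher by more than it, against 26.9% of all genes. The other 18 members (36%) were within it, against 55.9% of all genes. As this SD leaves out variation between cultures, a difference beyond it does not show that a gene differed between the conditions. In RNA pooled from many cells, fewer cells that express a gene and less of its RNA per cell cannot be told apart.

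**Figure D1:**
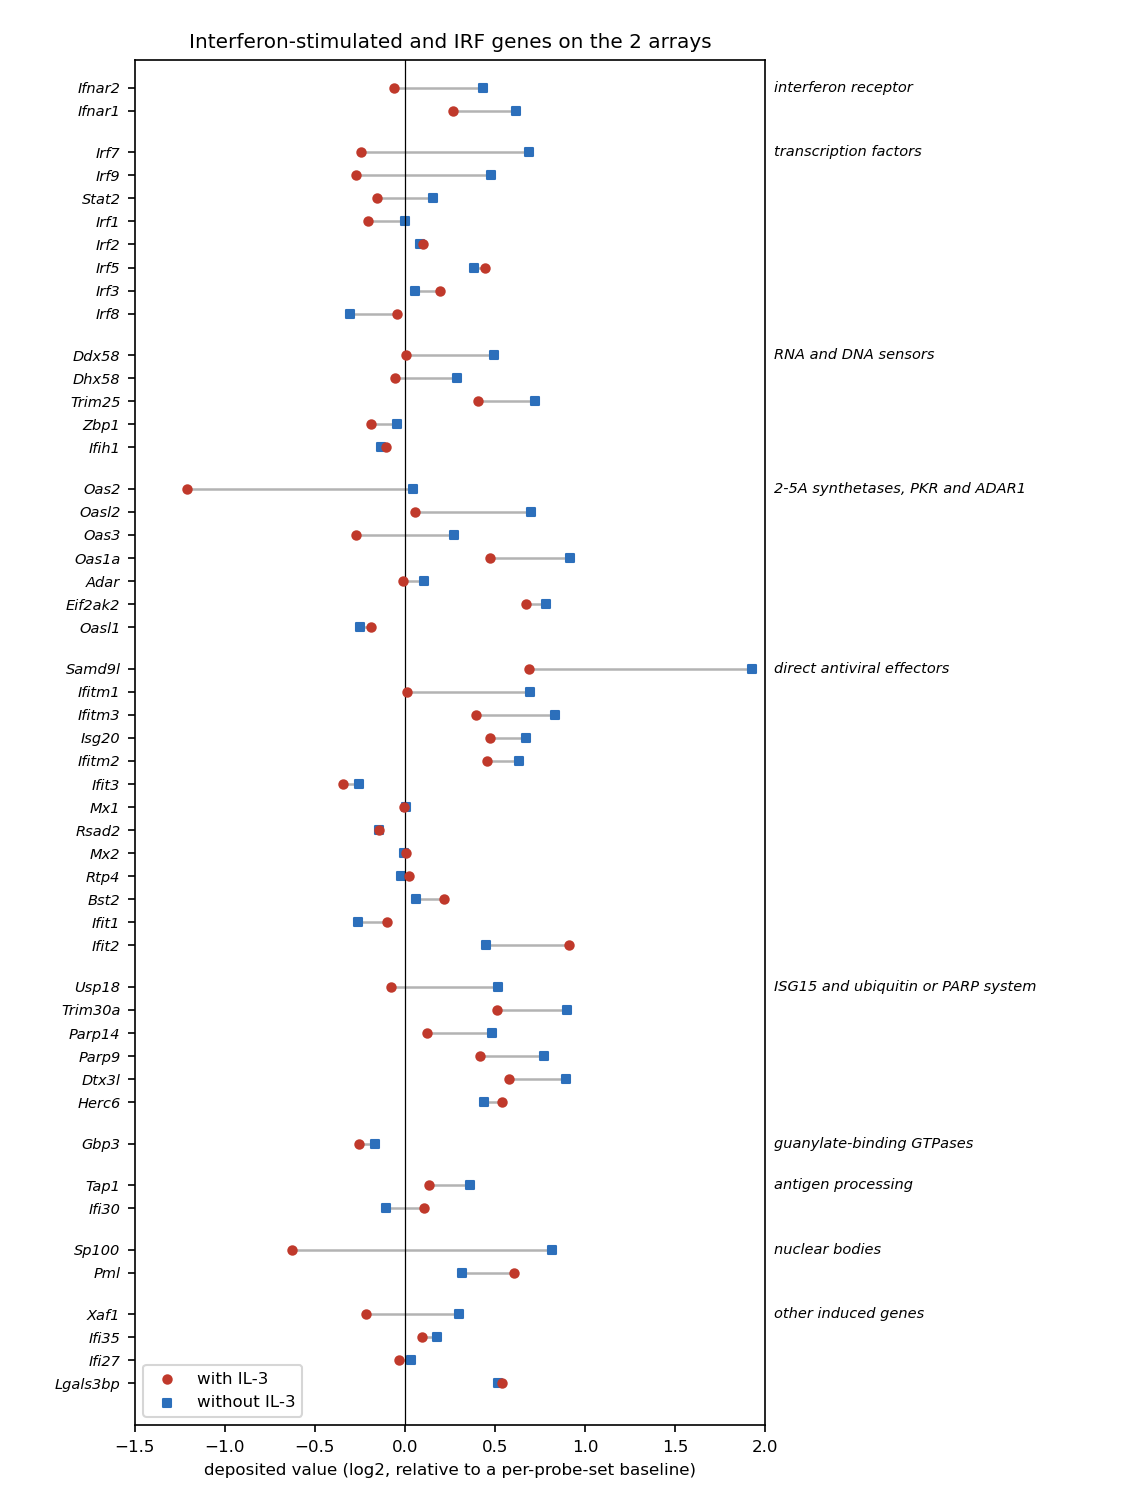
Deposited value (log2, relative to a per-probe-set baseline) of each of the 50 members on the array with IL-3 (red circles) and the array without IL-3 (blue squares), grouped by role, 1 array per group; grey lines join the 2 values of a gene. The square lies right of the circle in 35 genes, with the longest lines for Sp100, Oas2 and Samd9l.

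**Figure D2:**
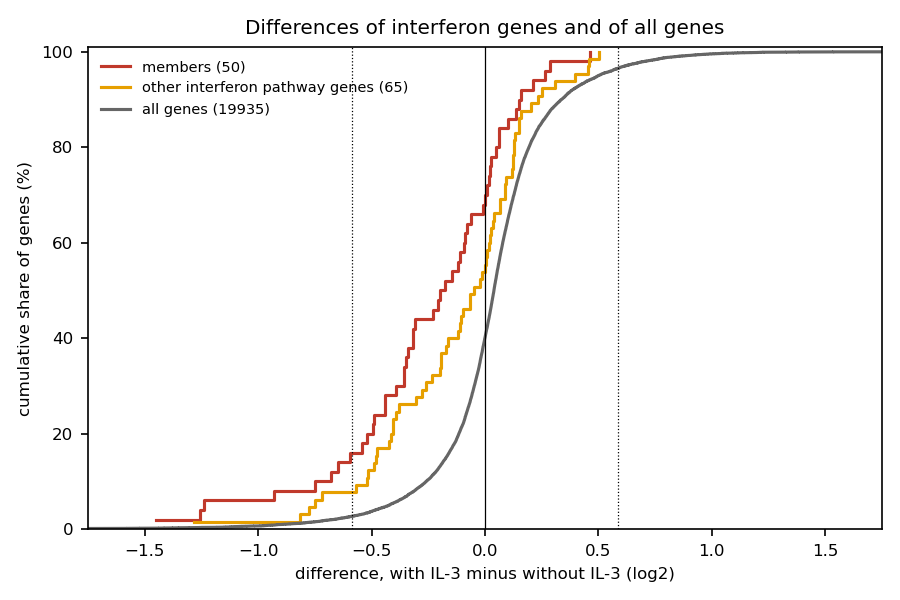
Cumulative share of genes (%) by their difference, with IL-3 minus without IL-3 (log2), for the 50 members, 65 other interferon pathway genes and all 19935 genes; dotted lines mark 1.5-fold. Over most of its range the curve of the members lies left of that of all genes, with medians of -0.19 and 0.04, and ends at 0.46 on the right.

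Both chains of the type I interferon receptor had lower values with IL-3. Ifnar2 was at -0.06 with IL-3 and at 0.43 without it, a difference of -0.49. Ifnar1 was at 0.27 with IL-3 and at 0.62 without it, a difference of -0.35. Both differences were larger than the probe set SD and smaller than 1.5-fold.

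Among the 7 measured IRFs and Stat2, Irf7 and Irf9 had the lowest differences. Irf7, the amplifier of the type I response, was at -0.25 with IL-3 and at 0.69 without it, 1.91-fold lower. Irf9, the DNA-binding subunit of ISGF3, was at -0.27 with IL-3 and at 0.48 without it, 1.68-fold lower. Stat2, its partner in ISGF3, was at -0.15 with IL-3 and at 0.15 without it, a difference of -0.31. Irf7 lay among the lowest 0.843% of all genes by difference and Irf9 among the lowest 1.53%.

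The remaining IRFs differed by less than 1.5-fold and in both directions. Irf1, which is induced by interferon gamma, was at -0.21 with IL-3 and at 0.00 without it; its other probe set gave nearly the same difference (-0.21 and -0.20). Irf2, an antagonist of IRF1 at many of its targets, was at 0.10 with IL-3 and at 0.09 without it. Irf3, the constitutive factor activated by nucleic acid sensing, was at 0.19 with IL-3 and at 0.06 without it, within the probe set SD. Irf5, which acts downstream of Toll-like receptors, was at 0.44 with IL-3 and at 0.38 without it. Irf8, a factor of myeloid and B-cell development, was at -0.04 with IL-3 and at -0.31 without it, and its difference of 0.26 was the highest of the 7. The median over the 7 IRFs was 0.02, and apart from Irf7 and Irf9 they lay between -0.21 and 0.26.

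Of the 5 sensors and sensor cofactors, 4 had a difference below 0, against 40.1% of all genes, and 0 reached 1.5-fold. Ddx58, which encodes the RNA sensor RIG-I, was at 0.00 with IL-3 and at 0.49 without it, a difference of -0.49. Dhx58, which encodes the RIG-I-like regulator LGP2, differed by -0.34, and Trim25, a ubiquitin ligase that activates RIG-I, differed by -0.32. Ifih1, which encodes the long-RNA sensor MDA5, was at -0.11 with IL-3 and at -0.13 without it. Zbp1, a sensor of Z-form nucleic acid, differed by -0.14.

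Oligoadenylate synthetases (OAS) make the messenger that activates RNase L. Of the 5 members that are OAS or OAS-like genes, 4 were lower with IL-3 by more than the probe set SD, against 17.1% of all genes. Oas2 was at -1.21 with IL-3 and at 0.04 without it, 2.39-fold lower. This was the largest difference of the group. Oasl2, an OAS-like protein, was at 0.05 with IL-3 and at 0.70 without it, 1.57-fold lower. Oas3 was at -0.27 with IL-3 and at 0.27 without it, a difference of -0.54. Oas1a was at 0.47 with IL-3 and at 0.91 without it, a difference of -0.44; the mouse has several near-identical Oas1 genes, so this value may mix copies. Oasl1, which limits Irf7 translation in mice, was at -0.19 with IL-3 and at -0.25 without it, and thus did not follow its neighbour Oasl2. Eif2ak2, which encodes the RNA-activated kinase PKR, differed by -0.11 and Adar, which encodes an RNA-editing enzyme, by -0.12, both within the probe set SD.

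The 13 direct antiviral effectors differed in both directions, with a median of -0.01 and 8 of 13 below 0, against 40.1% of all genes. Samd9l, which restricts viral translation and restrains proliferation, was at 0.69 with IL-3 and at 1.93 without it, 2.36-fold lower. Ifitm1, an inhibitor of viral entry at membranes, was at 0.01 with IL-3 and at 0.69 without it, 1.60-fold lower, and its other probe set differed by -0.72. Ifitm3, a paralog that acts in endosomes, was at 0.39 with IL-3 and at 0.83 without it, a difference of -0.44. For Ifitm2 the 3 probe sets differed by -0.44, -0.33 and -0.18, the smallest of which is the one used. The Ifitm genes are close paralogs and their values may mix copies.

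Several of the genes most often used as readouts of an interferon response were higher with IL-3 or differed by less than the probe set SD. Ifit2, which binds viral RNA with its IFIT partners, was at 0.91 with IL-3 and at 0.45 without it, 1.38-fold higher and the highest difference of all members. Ifit1 was at -0.10 with IL-3 and at -0.26 without it, and Ifit3 was at -0.35 with IL-3 and at -0.26 without it. The antiviral enzyme gene Rsad2 (viperin) was at -0.14 on both arrays. Mx1 and Mx2, which encode dynamin-like GTPases, were at -0.004 and 0.005 with IL-3, and at 0.004 and -0.005 without it. Rtp4 differed by 0.05, and Bst2 (tetherin), which holds budding virus at the cell surface, by 0.15, whereas the exonuclease gene Isg20 differed by -0.20. Since the values carry no level, genes near baseline on both arrays may or may not have been expressed.

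In the group of ISG15 and of ubiquitin and ADP-ribose modification, 5 of 6 measured members were lower by more than the probe set SD, against 17.1% of all genes. Usp18, the protease that removes ISG15 and damps receptor signalling, was at -0.08 with IL-3 and at 0.52 without it, 1.51-fold lower and just past the rule of size. Dtx3l and Parp9 encode a ubiquitin ligase complex, and Parp14, next to Dtx3l on chromosome 16, an ADP-ribosyltransferase; they differed by -0.32, -0.36 and -0.36. Trim30a was at 0.51 with IL-3 and at 0.90 without it, a difference of -0.39. Herc6, the mouse ligase for ISG15, was at 0.54 with IL-3 and at 0.44 without it.

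The 2 genes of promyelocytic leukaemia nuclear bodies went opposite ways. Sp100 had the largest difference of all members, at -0.63 with IL-3 and at 0.82 without it, 2.73-fold lower, and lay among the lowest 0.196% of all genes. Pml, which builds the scaffold of these bodies, was at 0.61 with IL-3 and at 0.32 without it, 1.22-fold higher. Related copies of Sp100 sequence occur in mice, so the value of Sp100 may not be that of 1 gene.

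In antigen processing, Tap1, a subunit of the peptide transporter, was at 0.14 with IL-3 and at 0.36 without it. Ifi30, a lysosomal thiol reductase, was at 0.11 with IL-3 and at -0.11 without it. The GTPase gene Gbp3 differed by -0.09. Of the other induced genes, Xaf1, an antagonist of the apoptosis inhibitor XIAP, was at -0.22 with IL-3 and at 0.30 without it, 1.43-fold lower. Ifi35, Ifi27 and Lgals3bp were all within the probe set SD, at differences of -0.08, -0.06 and 0.02.

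Members with and without an ISRE match were set side by side, as a description. Of the 8 members at least 1.5-fold lower, 6 had a promoter entry and 0 of these held the ISRE in the searched window; Oas2 and Usp18 had no entry. The 15 measured members with a match had a median difference of -0.11, with 11 of 15 (73.3%) below 0, ranging from -0.54 for Oas3 to 0.16 for Ifit1. The 25 measured members with an entry and no match had a median of -0.21, with 16 of 25 (64%) below 0, ranging from -1.45 to 0.46. Over all genes with an entry the medians were 0.03 for 607 genes with a match and 0.04 for 15005 without, and 3.79% of the genes with a match and 2.71% of those without were at least 1.5-fold lower. Below 0 were 43.8% of the genes with a match and 39.9% of those without. The 53 genes with the longer form had a median of -0.05, with 58.5% below 0 and 3.77% at least 1.5-fold lower. Members are among these 53 genes, so they are not a separate set. The order of the groups with and without a match thus depended on the measure. Stat2 and Ifit1, printed above, have the same letters in their match and differed by -0.31 and 0.16. Ifit1 holds the longer form and Stat2 does not. The promoters of Sp100 and Samd9l hold repeated half-sites (TTTC, or GAAA on the other strand, in capitals) with a spacing other than the searched one, and are shown because these are 2 of the 3 members past 2-fold. Half-sites on either strand with 1 to 5 bases between them were in the 250 bases before the start of 17.7% of all genes and of 21 of the 43 members (48.8%). This range includes the searched spacing of 2 bases, so these shares overlap the ISRE matches above and give no share for other spacings alone. Of the other members past 1.5-fold with an entry, Irf7, Irf9, Oasl2 and Ifitm1 held 1 to 3 half-sites per window, none of them 1 to 5 bases apart.
Sp100, chr1:85649939-85649968, plus strand: acTTTCgttTTTCtTTTCcccatcagggcg
Samd9l, chr6:3399572-3399598, minus strand: taaagagcaGAAAaagaGAAAaaaagc
A match describes the reference sequence and is neither a site nor a cause, and a window without one says only that these letters are not in it.

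Further genes of the pathway, taken from a list that leaves out the members, were examined in the same way. Of 77 genes listed, 65 had a probe set naming them alone. Their median difference was -0.05, against 0.04 over all genes, and 36 of 65 (55.4%) were below 0, against 40.1% of all genes. On the lower side with IL-3, 5 (7.69%) passed 1.5-fold, against 2.71% of all genes. On the higher side 0 passed it, against 3.52% of all genes. Ifngr1, the ligand-binding chain of the interferon gamma receptor, was at 0.11 with IL-3 and at 1.39 without it, 2.43-fold lower. Its partner Ifngr2 differed by -0.12.

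The other 4 genes past 1.5-fold belong to the induced and antigen presentation lists. Ifi27l2a, a strongly inducible mouse gene, was at 0.21 with IL-3 and at 1.03 without it, 1.76-fold lower. Sp140, a relative of Sp100, was at -0.07 with IL-3 and at 0.70 without it, 1.71-fold lower. Slfn5, of the Schlafen family, was at 0.17 with IL-3 and at 0.92 without it, 1.68-fold lower. Tap2, the partner of Tap1, was at -0.20 with IL-3 and at 0.52 without it, 1.65-fold lower.

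The interferon genes and the receptor kinases were all within 1.5-fold. The 6 measured interferon genes had differences between -0.02 and 0.25, with Ifnb1 at 0.05 with IL-3 and at -0.05 without it. The differences of all 3 kinases were below 0, against 40.1% of all genes. Jak2, which serves the interferon gamma and IL-3 receptors, was at 0.54 with IL-3 and at 0.82 without it, a difference of -0.28. Jak1 was at 0.55 with IL-3 and at 0.74 without it, and Tyk2 was at -0.03 with IL-3 and at 0.03 without it. The difference of Tyk2, -0.07, was within the probe set SD. The chemokine gene Cxcl10 and the nucleotide kinase gene Cmpk2, both strongly inducible by interferon, each differed by 0.02. On the higher side, the DNA sensor gene Cgas reached 0.50 and Psme2, of the antigen presentation list, 0.46. Socs1, a feedback inhibitor of JAK kinases, reached 0.45.

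**Figure D3:**
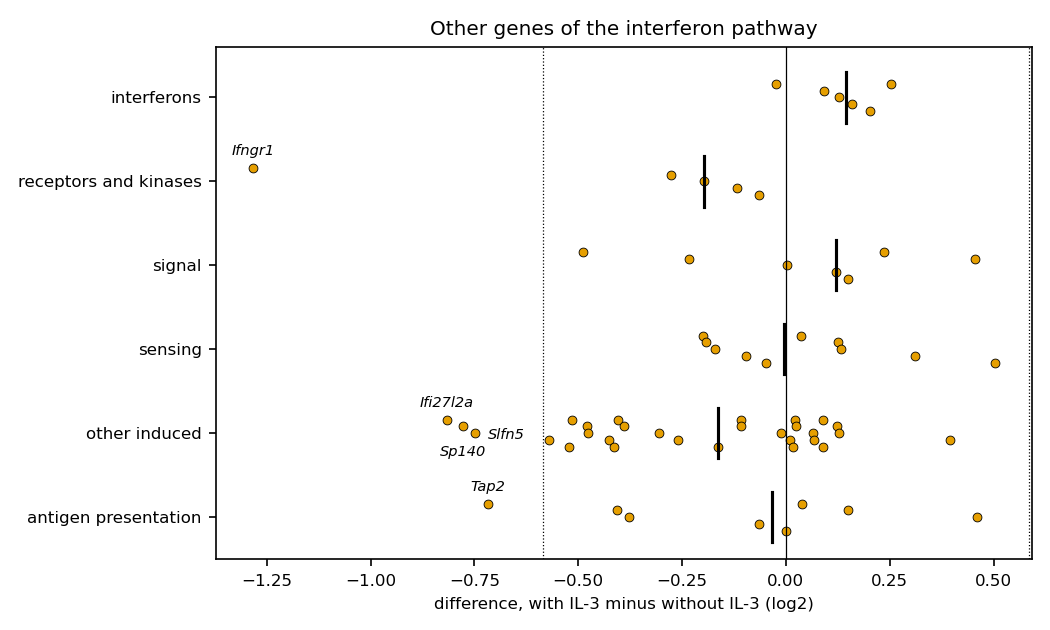
Difference, with IL-3 minus without IL-3 (log2), of 65 interferon pathway genes outside the members, by list; each point is a gene, black bars are list medians and dotted lines mark 1.5-fold. The 5 named genes lie below the lower line, and the 6 interferon genes lie between -0.02 and 0.25.

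Markers of several blood cell types and of fibroblasts were set beside these genes, although the samples are described as a cell line. Plasmacytoid dendritic cells are the main producers of type I interferon; their 4 markers, 1 of which is the member Bst2, ranged from -0.21 to 0.21 with IL-3 and from -0.12 to 0.06 without it, with 0 of 4 at 1.5-fold. Of 5 mast cell and basophil markers, 3 were more than 1.5-fold lower with IL-3, against 2.71% of all genes. These were Fcer1a by 5.49-fold, Cpa3 by 2.16-fold and Ms4a2 by 1.89-fold. Of the rest of this list, Kit went the other way with a difference of 0.18. Mcpt8 differed by -0.09, within the probe set SD. The mast cell and basophil list ranged from -0.58 to -0.20 with IL-3 and from -0.39 to 1.88 without it. Of 5 macrophage markers, Adgre1 was 1.73-fold lower, and the list ranged from -0.21 to 0.46 with IL-3 and from -0.27 to 0.98 without it. Of 5 T cell markers, Cd3g was 1.74-fold lower and 4 had a difference above 0. The T cell list ranged from -0.21 to -0.01 with IL-3 and from -0.25 to 0.59 without it. None of the 7 measured B-lineage, 5 granulocyte and 4 fibroblast markers reached 1.5-fold. In the B-lineage list Cd79a differed by -0.35, but 5 of the 7 had a difference above 0, and the list median was 0.06. Any link between these markers and the values of the interferon genes was not tested.

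The 8 members at least 1.5-fold lower with IL-3 stayed past that size when the arrays were median-centred, quantile-normalized or corrected for a loess trend. Of the 50 members, 35 were below 0 and 12 above 0 under all 4 scalings. For Mx2, Ifih1 and Lgals3bp the sign depended on the scaling. The median over all genes stayed between 0.00 and 0.04 across the 4 scalings, and that of the members between -0.26 and -0.19.

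**Figure D4:**
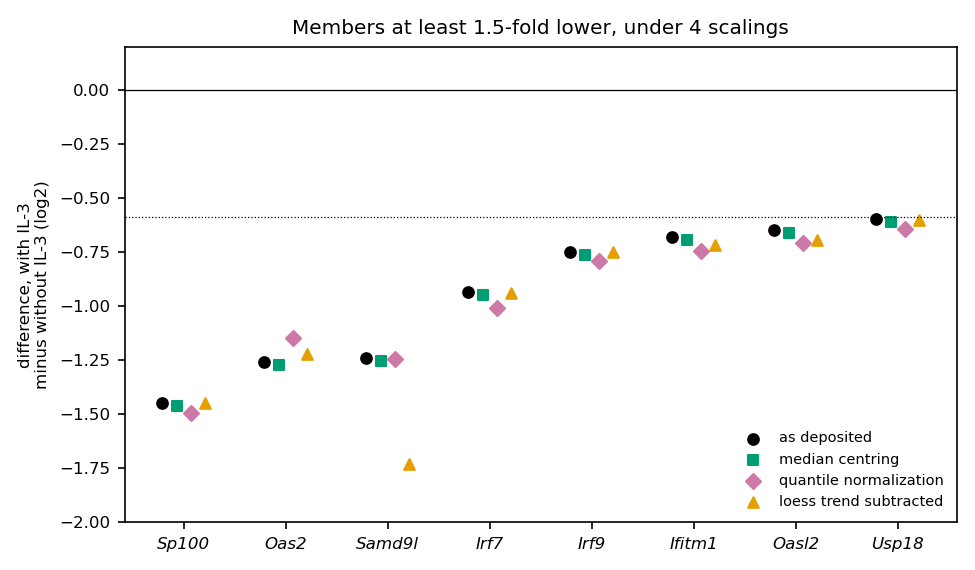
Difference, with IL-3 minus without IL-3 (log2), of the 8 members at least 1.5-fold lower, on the deposited scale and under 3 other scalings of the 2 arrays; the dotted line marks 1.5-fold. All points lie below it, and the widest spread is that of Samd9l, from -1.24 as deposited to -1.73 with a loess trend subtracted.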

How the data were processed

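Total RNA (Qiagen miRNeasy) was hybridised as biotin-labelled sense-strand cDNA to Gene 1.0 ST arrays, per the labels' protocols. The authors deposited 1 log value, read here as log2, for each of 28815 probe sets and 2 arrays. In 1760 probe sets (6.11%), 6 of them used for members, the 2 values were equal and opposite within 1e-05, so that the values are relative to a per-probe-set baseline which drew on further arrays not analysed here. How probe sets were summarised and normalized and which log base was used is not given in the sources used here. Of the probe sets, 21780 had 1 symbol in the platform annotation, 1605 several and 5430 none; all 50 measured members matched RefSeq (GRCm38.p6) by gene identifier. The design allowed no test, so differences were counted at 1.5-fold and 2-fold and set beside all genes. Named in full are members past 1.5-fold, IRFs, Stat2, receptor chains and the extremes of each role. Further pathway genes past 1.5-fold, Jak1 and Tyk2 were named, and Ifngr2, Jak2, Ifnb1, Cxcl10, Cmpk2, Cgas, Psme2 and Socs1 after their values were seen. Members and lists were chosen with earlier results of these data known. The scalings were tested on simulated data with small added noise and equal numbers of probe sets raised and lowered. That checked only the recovery of known differences in this setting, and not how the scalings behave on these arrays. Python 3.11.15, pandas 2.3.3 and statsmodels 0.14.6 (lowess, fraction 0.3) were used. The number of arrays limits the precision.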

Additional observations from a re-analysis of the deposited data

How the results depend on the processing

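The counts and medians of the members and of the other pathway genes kept their direction, and the counts stayed within 1.5 times, under median centring, quantile normalization, a loess trend subtracted, the mean or the lowest of a gene's probe sets, and a filter that kept genes reaching an array's median on at least 1 array. That filter left 43 members with a median of -0.31, and it keeps genes partly through the difference itself. The log base mattered most. Read as natural logs, 14 members were at least 1.5-fold lower (all genes 5.42%), 1 was at least 1.5-fold higher and 5 were at least 2-fold lower (all genes 7.40% and 1.88%); of the other pathway genes 14 were at least 1.5-fold lower and 3 higher. Read as log10, 26 members were at least 1.5-fold lower (all genes 14.6%) and 4 higher (22.1%), 22 were at least 2-fold lower (8.42%) and 1 higher (11.7%), their median was -0.62, and of the other pathway genes 24 were lower and 8 higher. These follow from the larger step per unit. The share of member promoters with an ISRE match was 20.9% with the longer motif. Among single members, 6 moved by more than the probe set SD with a loess trend subtracted and 1 (Ifitm2) with the lowest probe set. No paired analysis was possible because each group had 1 array. With swapped labels or a turned scale every difference would change sign, which these data cannot settle.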

Other observations

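The position of the members relative to the per-probe-set baseline was recorded as a value that enters no comparison above. Both arrays lay above the baseline in 25 of 50 members (50%), against 34.3% of all genes, and both lay below it in 8 (16%), against 45.5%. In 14 members (28%) the array with IL-3 was at or below the baseline and the array without IL-3 above it, against 9.15% of all genes; the opposite arrangement occurred in 3 members (6%), against 11.0%. The median value of the members was 0.02 with IL-3 and 0.34 without it, against -0.02 with IL-3 and -0.04 without it over all genes. The arrays behind the baseline are not analysed here, so these values say nothing about which condition lies near an untreated state.

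Members that neighbour each other in the RefSeq annotation were alike in some clusters and unlike in others. On chromosome 16, Parp9, Dtx3l and Parp14 differed by -0.36, -0.32 and -0.36. On chromosome 5, the adjacent genes Oas2 and Oas3 differed by -1.26 and -0.54, while the adjacent genes Oasl1 and Oasl2 differed by 0.06 and -0.65. On chromosome 19, the adjacent genes Ifit2 and Ifit3 differed by 0.46 and -0.09.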
